A study of Mus musculus with 12 samples.

Results

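The β2 integrins are the cell adhesion receptors of leukocytes, and the genes described here are Itgam, which encodes CD11b, Itgax, Itgal, Itgad and Itgb2. The members were set by gene family: the α-chain genes that pair with the β2 chain, and the β2 chain gene itself, 5 of 18142 protein-coding gene windows tested. For each gene, every CpG from 10 kb outside either annotated end through the gene body (the gene window) was taken when all 12 libraries read it 10 times or more. This left 129 of the 1052856 CpGs so covered in the series. No gene needed a lower minimum.

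Each integrin is a pair of an α and a β chain in the cell membrane. CD11b with the β2 chain forms Mac-1, or complement receptor 3, which binds ICAM-1, fibrinogen and a cleaved form of complement C3, and which monocytes, macrophages and neutrophils carry at high levels. CD11c (Itgax) with the β2 chain is widely used to mark dendritic cells, CD11a (Itgal) with the β2 chain forms LFA-1 on most leukocytes, and CD11d (Itgad) is a less studied α chain. DNA methylation is the addition of a methyl group to cytosine, mostly at CpG, and gene starts that are rich in CpGs usually carry little of it.

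The libraries came from CMM cells, a GFP-positive mouse leukaemia line that carries the inv(16) form of acute myeloid leukaemia, grown in C57BL/6 mice after injection into a vein. From about 1% GFP-positive cells in blood, mice received 3 intravenous injections, given every other day, and spleens were taken 1 day after the last. In mice given CpG-STAT3dODN, a CpG oligonucleotide linked to a decoy for the transcription factor STAT3, GFP-positive cells were sorted into CD11b-positive and CD11b-negative fractions (4 libraries each). In mice given PBS, the GFP-positive cells were sorted without regard to CD11b (4 libraries). Thus CD11b, the product of Itgam, defines both treated groups. In comparisons with PBS, treatment and selection for CD11b cannot be told apart. Whether each library is a different mouse is not stated in the labels, and the p-values therefore cover the variation among these 12 libraries, part of which may be technical. The files hold DNA methylation and no expression, so neither CD11b nor any other marker of the sorted cells could be checked at the RNA level.

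DNA methylation was measured by reduced representation bisulfite sequencing, which reads restriction fragments rich in CpGs after unmethylated cytosines have been converted. The libraries held 112671408 to 157223205 calls. The libraries numbered 2 of both treated groups stood apart. Over all gene windows, CD11b-negative 2 was closest to CD11b-positive 2 (Pearson r = 0.997 across windows, root mean square difference 2.55 percentage points). CD11b-negative 3 was likewise closest to a library of another group, PBS 4 (r = 0.996). CD11b-negative 2 also listed 8584459 cytosines, against 4212014 to 5120572 in the other CD11b-negative libraries. The CD11b-positive libraries listed 5120384 to 9126214 cytosines, the most in CD11b-positive 2, and the PBS libraries 4204611 to 4952296, without overlap. In that comparison the number listed cannot be told apart from the group, and its part in the differences was not tested. Calls on 8 single-copy Y genes per 1000000 autosomal calls (the Y share) came to between 23.8 and 41.3 in the CD11b-positive libraries, 8.64 to 40.2 in the CD11b-negative libraries and 5.52 to 18.6 in the PBS libraries. CD11b-negative 2 held the 40.2 and CD11b-positive 2 the 41.3. These libraries also had the lowest mean methylation of the X chromosome, 47.6% and 48.0%, against 53.4% to 57.2% in the other libraries. The labels give the sex neither of the mice nor of the CMM line, so what the Y share measures in these cells is unknown. Results that rest on the libraries numbered 2 are therefore given with and without them.

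The coverage of the members was uneven. Itgam (chr7:128062640-128118491, mm10) had 20 CpGs in its window, of 457 listed in any library, and 4 of the 20 lay in the gene body. Itgax (chr7:128129526-128150657) had 49 of 345, with 5 in the body, and 11 of the 49 were shared with Itgam because the windows overlap. Itgal (chr7:127296139-127335137) had 35 of 512, with 21 in the body. Itgad (chr7:128173933-128205504) had 14 of 405, with 10 in the body, and Itgb2 (chr10:77530329-77565708) had 22 of 498, with 15 in the body. Some of these CpGs lie inside another annotated gene: 27 for Itgax (Gm17831), 14 for Itgal (Zfp768 and Gm31897), 13 for Itgad (Gm39091, 4931431B13Rik and Cox6a2), 3 for Itgb2 (Gm36040) and none for Itgam. CpGs that lie close together are read by the same fragments and are not independent measurements.

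The starts of Itgam and Itgax are shown because they are the DNA closest to the first exon of each gene. They were also almost unread: no CpG within 1000 bp of either start had 5 calls in every library. RefSeq (GRCm38.p6, the build mm10) gives the 250 bases before and the 50 after each start, on the plus strand (for Itgax the start in its table lies slightly inside the annotated gene), and the capitals mark CpGs, the places where a call could be made.
Itgam (chr7:128062390-128062689): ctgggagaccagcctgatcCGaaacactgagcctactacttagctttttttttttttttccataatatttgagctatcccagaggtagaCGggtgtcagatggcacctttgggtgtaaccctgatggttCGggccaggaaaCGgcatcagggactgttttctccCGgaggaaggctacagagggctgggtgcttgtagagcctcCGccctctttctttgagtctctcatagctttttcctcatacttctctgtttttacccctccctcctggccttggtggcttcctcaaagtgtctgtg
Itgax (chr7:128129300-128129599): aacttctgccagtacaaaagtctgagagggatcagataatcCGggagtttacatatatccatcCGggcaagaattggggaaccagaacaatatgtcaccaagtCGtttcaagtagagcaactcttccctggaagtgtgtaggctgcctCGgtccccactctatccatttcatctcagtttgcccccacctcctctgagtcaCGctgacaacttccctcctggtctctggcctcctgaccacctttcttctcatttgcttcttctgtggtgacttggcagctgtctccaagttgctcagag
The Itgam sequence holds 6 CpGs, of which 5 had any call, and the Itgax sequence 5 CpGs, of which 3 had any call.

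At the Itgam start, the CpG 46 bp before the annotated start had 0 methylated calls of 10 in CD11b-positive cells, 0 of 8 in CD11b-negative cells and 0 of 2 in PBS cells. Together 0 of 20 calls allow a level of up to 15%, for counting error only. Over the whole printed Itgam sequence, 1 of 21 calls was methylated in CD11b-positive cells, 0 of 11 in CD11b-negative cells and 2 of 16 in PBS cells. The 95% Wilson intervals were 0.846% to 22.7%, 0% to 25.9% and 3.498% to 36.0%, so no difference between the groups could be detected at this depth. For the printed Itgax sequence the counts were 0 of 14 in CD11b-positive, 1 of 16 in CD11b-negative and 1 of 5 in PBS cells. What follows for Itgam and Itgax thus concerns DNA away from their starts.

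CD11b-positive cells were first set against PBS cells, that is, treated leukaemia cells carrying CD11b against untreated ones. DNA methylation was higher in the CD11b-positive cells at Itgam, Itgax, Itgad and Itgb2, and at Itgal the window did not pass the test. The gain was 24.3 points at Itgam, the gene of the protein used for the sort, and 23.2 points at Itgax, on levels of 50.9% and 58.0% in PBS cells. It was 18.1 points at Itgb2, the gene of the chain that CD11b pairs with, and 13.5 points at Itgad. So 4 of 5 members were called higher and 0 lower, where 19.1% of all 18142 windows were called higher and 3.34% lower. The median difference was 18.1 points over the 5 windows and 3.51 points over all windows. The windows were not matched for level. In PBS cells the members lay at 38.1% to 58.0%, and the median of all windows at 23.4% to 27.5%. A count by level was made for CpGs and is given below. The members were chosen by family, and no test of the 5 as a set was made. The CD11b-positive libraries lay wholly above the PBS libraries in 4 of the 5 windows, 4 of 5 bodies, 14 of 21 tiles and 73 of 129 CpGs, where 47.8% of all windows, 39.0% of bodies, 50.3% of tiles and 17.6% of CpGs had no overlap in that direction. They lay wholly below in no window or body, 1 tile and 4 CpGs, where 4.75% of windows, 5.63% of bodies, 5.88% of tiles and 5.06% of CpGs did.

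Itgam window methylation was 72.8%, 86.7%, 70.2% and 71.0% in the CD11b-positive libraries, 58.5%, 85.7%, 53.3% and 53.7% in the CD11b-negative libraries, and 46.6%, 54.6%, 51.1% and 51.3% in the PBS libraries (replicates 1 to 4). All 4 CD11b-positive libraries lay above all 4 PBS libraries, and CD11b-negative 2 lay among the CD11b-positive ones while the other CD11b-negative libraries lay below them. The means were 75.2% ± 7.74 in CD11b-positive cells, 62.8% ± 15.4 in CD11b-negative cells and 50.9% ± 3.27 in PBS cells (SD, n = 4 each). The difference between CD11b-positive and PBS was 24.3 points (SE 4.20, adjusted p = 0.00188, quasi-binomial F test with Benjamini-Hochberg adjustment over all windows). Each Itgam window value rests on 1973 to 2973 calls. The gene body alone, with 4 CpGs, gave 24.96 points (adjusted p = 0.00388).

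**Figure D1:**
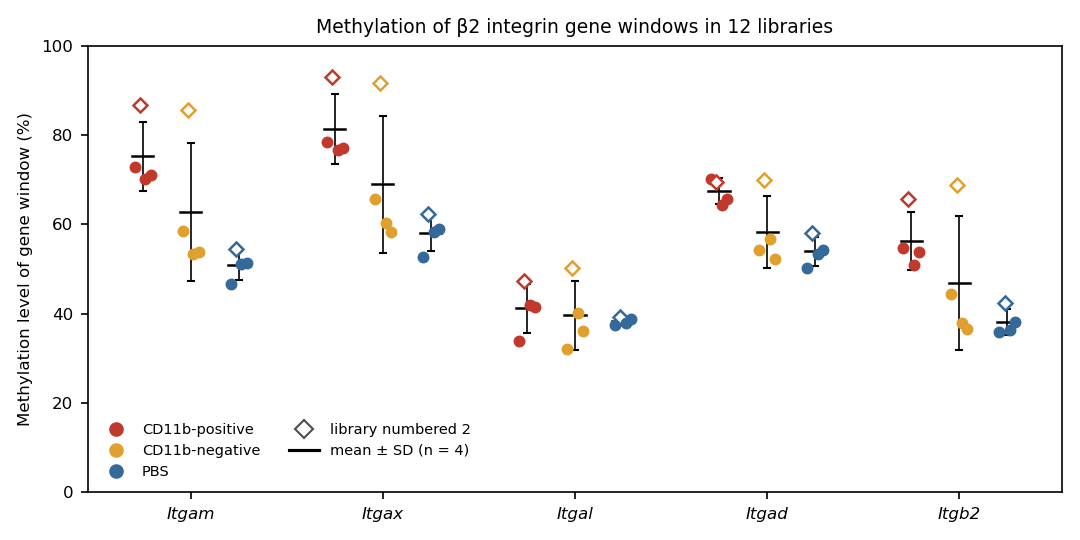
Methylation level (%, y axis) of the 5 gene windows in each of the 12 libraries, in CD11b-positive, CD11b-negative and PBS order within a gene. Circles and diamonds are libraries, diamonds are the libraries numbered 2, and bars are the mean ± SD (n = 4). In Itgam, the CD11b-negative library numbered 2 is at 85.7% and the other CD11b-negative libraries are between 53.3% and 58.5%.

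Itgax, which encodes the α chain of the dendritic cell marker CD11c, had window levels of 78.3%, 92.9%, 76.6% and 77.1% in CD11b-positive cells, 65.7%, 91.5%, 60.2% and 58.2% in CD11b-negative cells, and 52.6%, 62.3%, 58.2% and 59.0% in PBS cells. Again all CD11b-positive libraries lay above all PBS libraries and CD11b-negative 2 lay with CD11b-positive 2. The difference between CD11b-positive and PBS was 23.2 points (SE 4.40, adjusted p = 0.00210). The gene body, with 5 CpGs and 452 to 737 calls per library, gave 63.0% ± 14.4 in CD11b-positive cells and 30.7% ± 6.11 in PBS cells (SD, n = 4 each), a difference of 32.3 points (adjusted p = 0.00699).

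Itgb2 encodes the β2 chain that all these α chains need to reach the cell surface. Its window levels were 54.7%, 65.6%, 50.9% and 53.8% in CD11b-positive cells, 44.5%, 68.7%, 37.8% and 36.5% in CD11b-negative cells, and 35.9%, 42.4%, 36.2% and 38.0% in PBS cells. The CD11b-positive libraries lay above the PBS libraries without overlap, and CD11b-negative 2 was the highest of the 12. The difference between CD11b-positive and PBS was 18.1 points (SE 3.56, adjusted p = 0.00238).

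Itgad encodes CD11d, an α chain known mainly from tissue macrophages. Its window was at 70.2%, 69.4%, 64.4% and 65.7% in CD11b-positive cells, 54.3%, 70.0%, 56.8% and 52.2% in CD11b-negative cells, and 50.3%, 58.1%, 53.3% and 54.2% in PBS cells. The CD11b-positive and PBS libraries did not overlap, and the difference was 13.5 points (SE 2.14, adjusted p = 0.00352). Of the 14 Itgad CpGs, 13 lie inside another annotated gene as well. The gene body alone differed by 8.71 points and was not called (adjusted p = 0.0666). Without CD11b-positive 2 and PBS 2, the body differed by 11.9 points, without overlap, and was called (adjusted p = 0.0212, same test). In that setting 19.6% of all bodies were called in either direction. The body was also called without CD11b-positive 2 alone and with CpGs common to the 8 libraries compared.

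Itgal encodes CD11a, the α chain of LFA-1, and its window had the smallest difference of the 5. Its levels were 34.0%, 47.3%, 42.0% and 41.4% in CD11b-positive cells, 32.0%, 50.1%, 40.2% and 36.1% in CD11b-negative cells, and 37.5%, 39.1%, 37.8% and 38.8% in PBS cells. The groups overlapped, and the CD11b-positive minus PBS difference was 2.85 points (SE 2.78, adjusted p = 0.357). The overlap depended on weighting CpGs by calls. With equal weight per CpG, levels were 51.4%, 55.9%, 51.7% and 52.2% in CD11b-positive and 43.6%, 46.2%, 44.0% and 43.9% in PBS cells, without overlap. Over the other settings except the Y share term, the difference ran from 0.798 to 8.40 points, and none called the window. The lowest adjusted p over the settings was 0.00367 (test of that setting, Benjamini-Hochberg adjustment). In that setting the window passed the test, and only the size of the difference fell short of a call. The gene body alone differed by 4.88 points, without overlap, and was not called (adjusted p = 0.0856). Its lowest adjusted p over the settings was 0.00518 (test of that setting), and no setting called it. Called in the gene bodies were Itgam, Itgax and Itgb2, 3 of 5 higher and 0 lower, where 18.4% of 16084 bodies were called higher and 3.71% lower.

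The Y share moved with these differences: all 4 CD11b-positive libraries lay above all 4 PBS libraries in it. With the Y share added to the model, no member window was called and the differences were 8.31 points at Itgam, 5.71 at Itgax, 6.02 at Itgb2, 7.81 at Itgad and -3.22 at Itgal. In that fit 0 of all 18142 windows were called. The Y share did not overlap between CD11b-positive and PBS libraries, so this fit could hardly tell it from the group. The loss of calls therefore does not show what part the Y share has in the differences, which was not tested beyond this. Without CD11b-positive 2 alone, the Itgam difference was 20.5 points (adjusted p = 7.95e-04). Without CD11b-positive 2 and PBS 2, Itgam, Itgax, Itgad and Itgb2 were called, where 16.5% of all windows were called higher and 2.84% lower, with 21.7 points at Itgam (CD11b-positive 71.4% ± 1.35, PBS 49.7% ± 2.67, SD, n = 3 each).

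**Figure D2:**
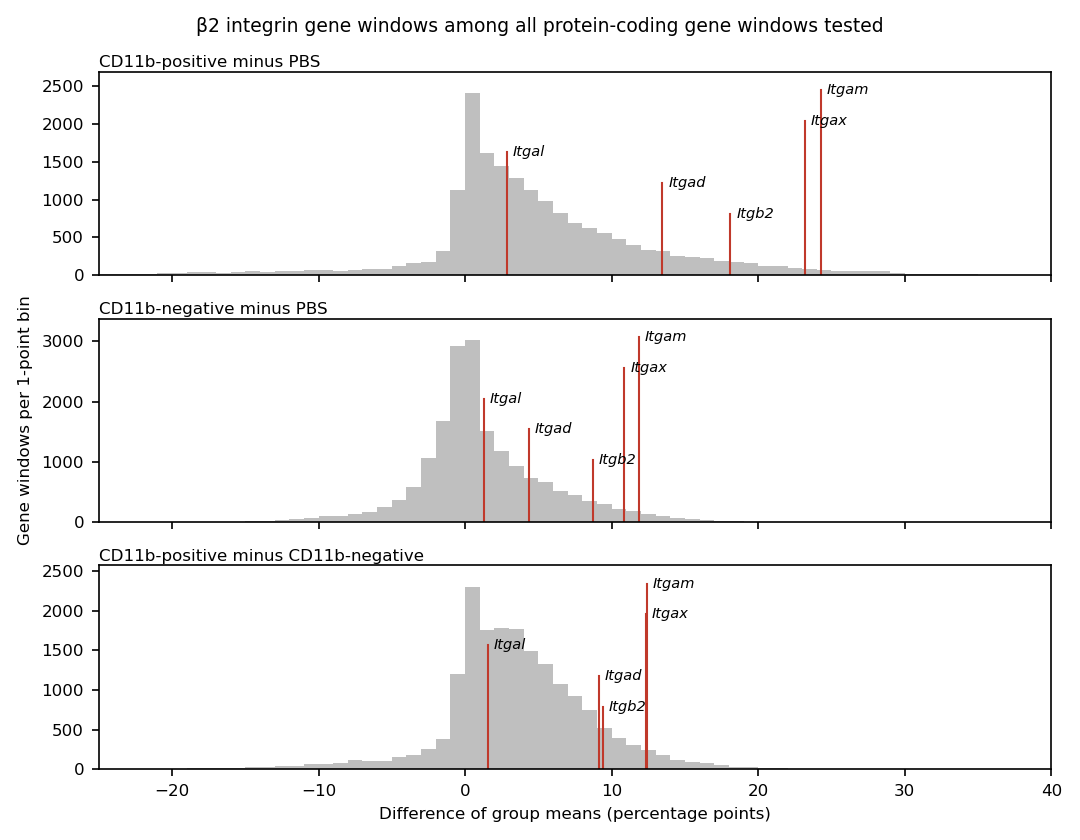
Difference of group means (percentage points, x axis) for all 18142 protein-coding gene windows (grey bars, windows per 1-point bin) in the 3 comparisons, with the 5 members as red lines. The axis is limited to the range from -25 to 40 points. In the CD11b-positive against PBS panel, 2.32% of windows have a larger difference than Itgam and 54.8% a larger one than Itgal.

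At the level of single CpGs, 65 of 129 were called higher and 1 lower in CD11b-positive than in PBS cells, where 13.2% of all CpGs were called higher and 3.47% lower. Much of the genome covered here is near 0% or near 100%, so the calls were also counted by level. Among CpGs whose mean level over the 12 libraries was between 20% and 80%, 52 of 71 members were called higher, where 44.9% of all such CpGs were. The median difference in that range was 26.9 points for the members and 16.95 points for all. In that range all 13 Itgam CpGs were called higher, as were 27 of 32 for Itgax, 10 of 14 for Itgb2, 5 of 8 for Itgad and 5 of 12 for Itgal. Above 80%, 12 of 36 member CpGs were called higher, where 7.21% of all such CpGs were, and below 20%, 1 of 22, where 1.09% were. Over all levels and by gene, the calls were 16 of 20 for Itgam, 30 of 49 for Itgax, 11 of 35 for Itgal, 6 of 14 for Itgad and 12 of 22 for Itgb2, with shared CpGs counted for both Itgam and Itgax. Of tiles of 1000 bp, 13 of 21 were called higher and 0 lower, where 32.5% of all tiles were called higher and 3.76% lower. In a fit of all 12 libraries 37 member CpGs were called higher and 1 lower, where 7.22% of all CpGs were called in either direction.

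**Figure D3:**
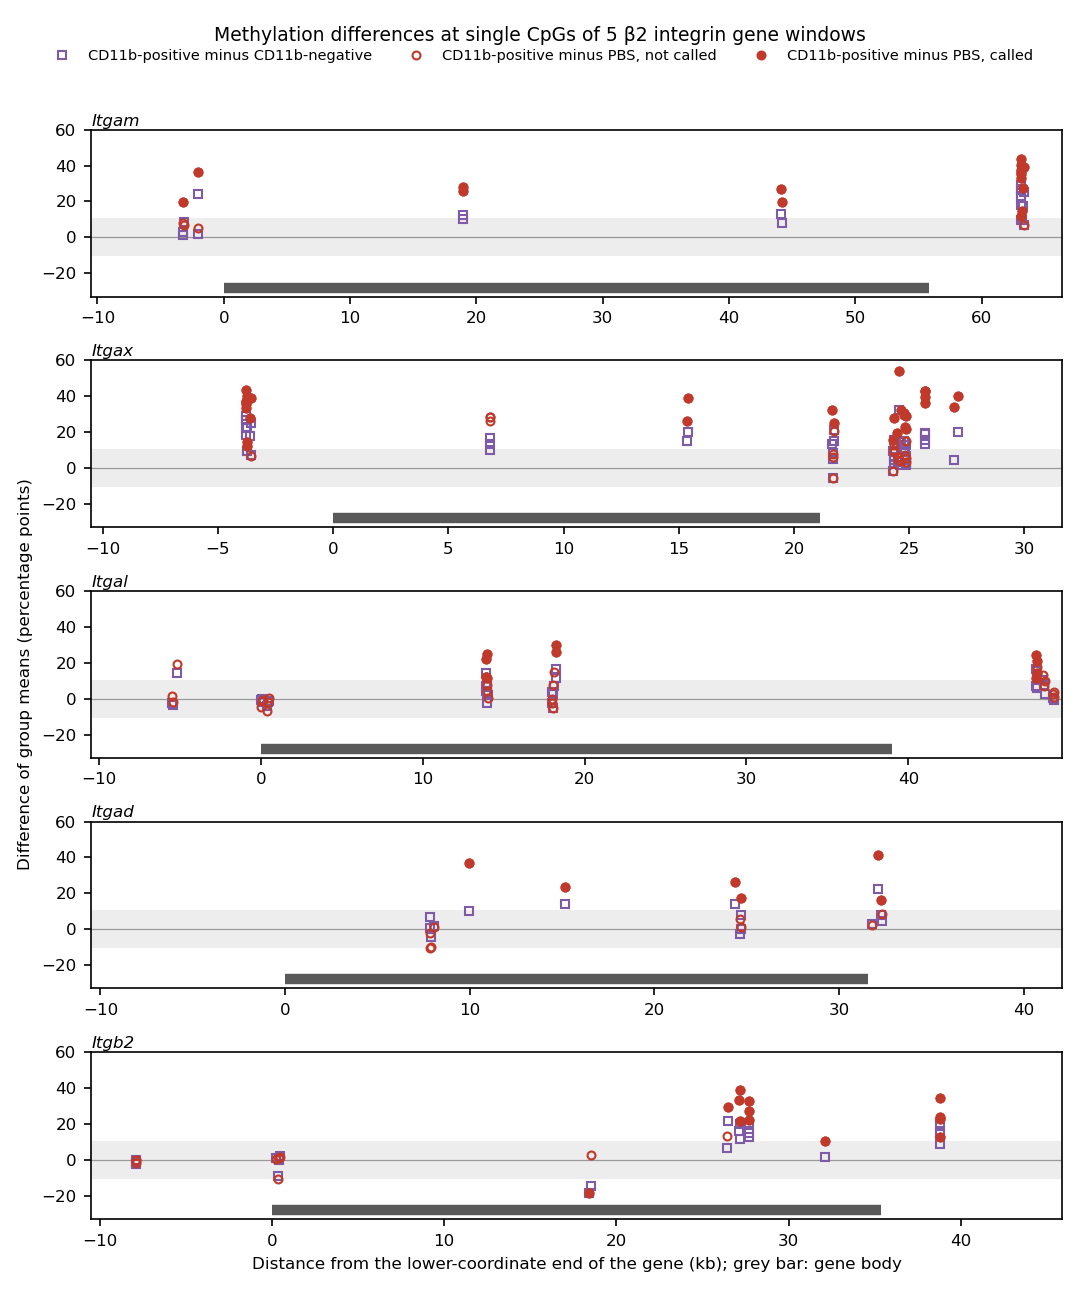
Difference of group means (percentage points, y axis) at each CpG against its distance from the lower-coordinate end of the gene (kb, x axis), for the 5 windows. Red circles are CD11b-positive minus PBS, filled where called, violet squares are CD11b-positive minus CD11b-negative, the grey bar is the gene body and the shaded band is under 10 points. By the rule for a call, every filled circle lies outside the shaded band, and the filled circle of Itgb2 at -18.6 points is the called loss.

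Along Itgam, the mean level was higher in CD11b-positive than in PBS cells in each of the 5 stretches of covered DNA (CpGs less than 300 bp apart). Before the start, at -3244 to -3118 bp from the start, levels were 40.8% ± 7.73 in CD11b-positive cells and 29.2% ± 1.49 in PBS cells (SD, n = 4 each), and 1 of 3 CpGs was called. At -2071 to -2025 bp they were 75.7% ± 12.9 in CD11b-positive cells and 54.8% ± 4.16 in PBS cells, with 1 of 2 CpGs called. In the gene body, 18935 to 18946 bp from the start, they were 73.8% ± 11.1 in CD11b-positive and 46.96% ± 6.15 in PBS cells, and at 44121 to 44168 bp they were 77.3% ± 7.505 in CD11b-positive and 53.9% ± 2.37 in PBS cells. All 4 body CpGs were called.

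The strongest Itgam signal lay between Itgam and Itgax. This stretch of 11 CpGs (chr7:128125725-128125978), which counts for both windows, was at 90.2%, 95.5%, 79.3% and 80.6% in CD11b-positive cells, 64.5%, 92.3%, 58.0% and 52.8% in CD11b-negative cells, and 54.1%, 58.8%, 57.9% and 56.0% in PBS cells. The PBS libraries lay within 5 points of each other, and CD11b-negative 2 lay far above the other CD11b-negative libraries. Its tile (chr7:128125001-128126000) differed by 29.7 points between CD11b-positive and PBS (SE 4.04, adjusted p = 0.00190), and 10 of its 11 CpGs were called. The largest gain at a single Itgam CpG was there, at position 128125737, with 43.4 points on 26 to 96 calls per library (adjusted p = 0.00259). It was at 83.5% ± 12.1 in CD11b-positive cells and 40.05% ± 2.92 in PBS cells (SD, n = 4 each).

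In Itgax, the largest difference of all members was at the CpG at position 128154099, beyond the upper end of the gene and inside Gm17831. It was at 80.7%, 87.2%, 55.4% and 55.6% in CD11b-positive cells, 30%, 82.9%, 23.4% and 12.6% in CD11b-negative cells, and 10%, 22.3%, 14.2% and 17.1% in PBS cells. Every CD11b-positive library lay above every PBS library, and the gain was 53.8 points (SE 8.73, adjusted p = 6.41e-04). The tile chr7:128155001-128156000, with 4 CpGs in the same gene, differed by 40.5 points (81.2% ± 10.9 in CD11b-positive cells, 40.7% ± 11.1 in PBS cells, adjusted p = 0.00323). The tiles starting at positions 128154001, 128153001 and 128151001 gained 19.5, 17.2 and 14.5 points, and the last of these was not called in the fit of all 12 libraries. Inside the Itgax body, the 2 CpGs at 15377 to 15413 bp from the start were at 64.1% ± 14.1 in CD11b-positive cells and 31.5% ± 4.54 in PBS cells, both called. The stretch that ends the window, 2 CpGs at 26961 to 27121 bp in Gm17831, was at 65.6% ± 14.7 in CD11b-positive cells, 53.3% in CD11b-negative cells and 28.5% ± 5.56 in PBS cells, with both CpGs called against PBS. The body tile at position 128136001 differed by 27.6 points and was not called (adjusted p = 0.0722), with only 42 to 100 calls per library.

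Itgal was divided. Its 6 CpGs at the lower-coordinate end of the gene (0 to 488 bp) were at 3.65% ± 1.65 in CD11b-positive cells, 5.98% ± 2.28 in CD11b-negative cells and 6.45% ± 0.874 in PBS cells (SD, n = 4 each). Their tile differed by -2.81 points between CD11b-positive and PBS cells, without overlap (adjusted p = 0.0354), which is under the 10 points a call needed. Which end of Itgal is the start was not given by the tables used here. Further into the body, the tile chr7:127310001-127311000 was at 92.4%, 95.6%, 90.5% and 91.3% in CD11b-positive cells, 85.8%, 95.1%, 85.7% and 84.2% in CD11b-negative cells and 80.5%, 81.6%, 80.5% and 79.9% in PBS cells. The PBS libraries lay within 2 points of each other and below every other library, and the gain of 11.8 points was called (SE 1.18, adjusted p = 3.65e-04). The tile chr7:127314001-127315000 gained 11.01 points, with overlapping libraries (adjusted p = 0.0430), and lost its call in 11 of 18 other settings. It holds the Itgal CpG with the largest gain, at position 127314397, with 30.01 points (75.4% ± 11.6 in CD11b-positive and 45.4% ± 10.2 in PBS cells, adjusted p = 0.0139), which was not called in the fit of all 12 libraries or without PBS 1. Beyond the upper end, inside the zinc finger gene Zfp768, the tile chr7:127344001-127345000 gained 13.1 points (adjusted p = 0.00503). The next tile, at position 127345001 with 59 CpGs of which only the first 3 are in the Itgal window, was at 1.76% ± 0.799 in CD11b-positive and 1.06% ± 0.131 in PBS cells.

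In Itgad, tiles at chr7:128206001-128207000, inside the cytochrome oxidase gene Cox6a2, and chr7:128198001-128199000, inside the body, gained 22.4 points (adjusted p = 0.00437) and 14.02 points (adjusted p = 0.00335). The CpG with the largest gain, at position 128206024, was at 51.9%, 88.1%, 61.9% and 55.5% in CD11b-positive cells, 34.5%, 82.5%, 27.1% and 23.0% in CD11b-negative cells, and 11.1%, 34.1%, 20.3% and 26.2% in PBS cells. All CD11b-positive libraries lay above all PBS libraries, by 41.4 points on average (adjusted p = 0.00158). A single body CpG at 15148 bp was at 69.3% ± 10.8 in CD11b-positive cells and 45.6% ± 4.74 in PBS cells and was called. The stretch of 4 body CpGs at 7845 to 8081 bp from the lower-coordinate end was not called (41.4% ± 7.37 in CD11b-positive cells, 43.4% ± 1.86 in PBS cells).

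Itgb2 had low, intermediate and high levels along its length. At the lower-coordinate end of the gene (223 to 440 bp), 4 CpGs were at 5.90% ± 1.93 in CD11b-positive cells, 7.40% ± 4.34 in CD11b-negative cells and 7.81% ± 0.922 in PBS cells, and none was called. Towards the other end, the tile chr10:77557001-77558000 was at 60.7%, 85.9%, 59.6% and 63.4% in CD11b-positive cells, 47.5%, 85.6%, 37.9% and 35.1% in CD11b-negative cells, and 31.2%, 42.7%, 33.1% and 38.0% in PBS cells. CD11b-positive and PBS libraries did not overlap, and the gain was 31.2 points (SE 6.73, adjusted p = 0.00347). The neighbouring tile at position 77558001 gained 27.5 points (adjusted p = 0.00431), and the one at position 77569001, outside the gene, 23.6 points (adjusted p = 0.00829). The largest single gain was 38.9 points at position 77557495 (62.1% ± 16.0 in CD11b-positive cells, 23.2% ± 6.52 in PBS cells, adjusted p = 0.00132). A single body CpG at 32126 bp from the lower-coordinate end was high in every group, at 91.2% ± 4.35 in CD11b-positive cells, 89.3% ± 5.55 in CD11b-negative cells and 80.6% ± 2.53 in PBS cells, and was called higher in CD11b-positive than in PBS cells, on 36 to 281 calls per library.

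A single member CpG was called lower, at position 77548739 (chromosome 10) in the Itgb2 body. It was at 60.6%, 61.8%, 58.2% and 57.7% in CD11b-positive cells, 74.3%, 81.1%, 77.5% and 79.7% in CD11b-negative cells, and 77.0%, 73.7%, 78.7% and 83.3% in PBS cells. The CD11b-positive libraries lay below both other groups without overlap, and here CD11b-negative 2 lay with the other CD11b-negative libraries and apart from CD11b-positive 2. The CD11b-positive minus PBS difference was -18.6 points (SE 2.23, adjusted p = 0.00611), on 100 to 276 calls per library, and the CD11b-negative minus PBS difference was -0.00141 points. With the Y share added to the model the difference was -19.0 points and was not called (adjusted p = 0.378). The stretch of 2 CpGs that holds this position differed by -6.41 points, with overlapping libraries (48.7% ± 2.72 in CD11b-positive cells, 55.1% ± 6.60 in PBS cells). The other CpG of the stretch was not called.

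**Figure D4:**
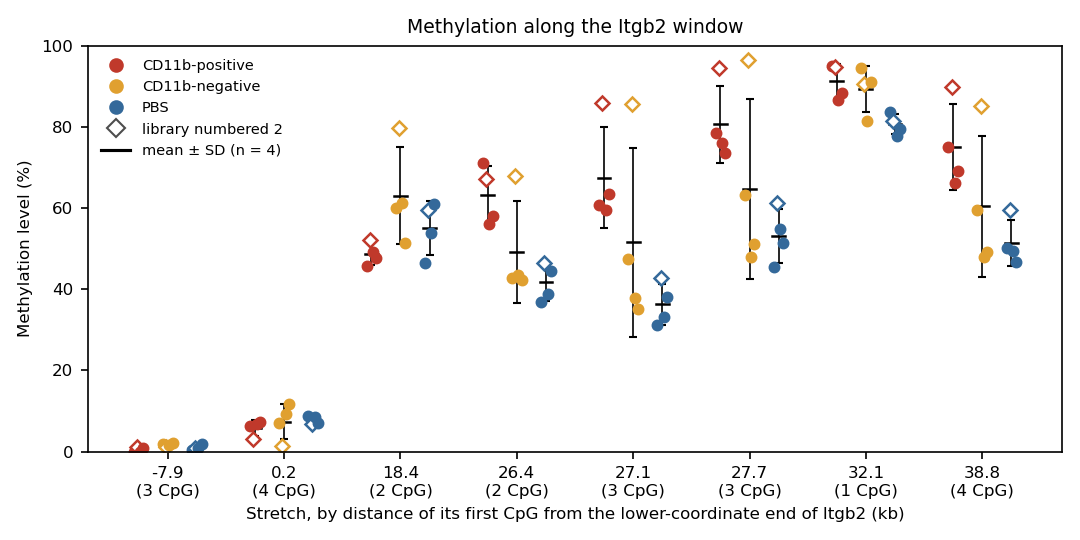
Methylation level (%, y axis) of each covered stretch of the Itgb2 window in each library, placed by the distance of its first CpG from the lower-coordinate end (kb, x axis), with CD11b-positive, CD11b-negative and PBS side by side. Diamonds are the libraries numbered 2 and bars the mean ± SD (n = 4). The stretch at 0.2 kb stays under 12% in every library, and at 27.1 kb the CD11b-positive mean is 67.4% and the PBS mean 36.2%.

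CD11b-negative cells were next set against PBS cells, that is, treated cells lacking CD11b against untreated ones. No member window, body, tile or CpG was called, and across the series 0.0% of windows, bodies, tiles and CpGs were. At an unadjusted p under 0.05 there were 0 of 5 windows, 0 of 5 bodies, 1 of 21 tiles and 12 of 129 CpGs, against 5.14% of windows, 5.84% of bodies, 9.9% of tiles and 5.02% of CpGs in the whole table. edgeR and limma, run on windows, bodies and tiles, called no member either. The differences were above 0 in all 5 windows, from 1.28 points at Itgal to 11.9 points at Itgam, with overlapping libraries in each. Without CD11b-negative 2 alone, the differences were 4.26 points at Itgam, 3.33 at Itgax, 1.43 at Itgb2, 0.442 at Itgad and -2.23 at Itgal. Without CD11b-negative 2 and PBS 2, they were 5.48 points at Itgam (CD11b-negative 55.2% ± 2.91, PBS 49.7% ± 2.67, SD, n = 3 each, adjusted p = 0.497), 4.77 at Itgax, 2.85 at Itgb2, 1.82 at Itgad and -1.96 at Itgal, and again none was called. The CpGs with the largest difference per gene, none called, were 128125776 in the stretch shared by Itgam and Itgax (17.5 points, and 6.18 without CD11b-negative 2 and PBS 2), 128156487 in Itgax (29.9, and 19.4 without them), 127310078 in Itgal (17.6, and 11.3), 128183886 in Itgad (27.0, and 17.2) and 77557495 in Itgb2 (19.1, and 7.15).

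The comparison of CD11b-positive with CD11b-negative cells stays within treated mice, and the sort on CD11b is the labelled difference. With all 8 libraries, methylation at Itgam was 12.4 points higher in CD11b-positive cells (SE 8.63, adjusted p = 0.221), and at Itgax 12.3, at Itgb2 9.40, at Itgad 9.13 and at Itgal 1.58 points higher. None was called, as 0.0% of windows, bodies, tiles and CpGs were in the whole table. At an unadjusted p under 0.05 there were 1 of 5 windows (Itgad), 0 of 5 bodies, 4 of 21 tiles and 15 of 129 CpGs, against 22.8%, 18.0%, 10.8% and 6.81% of the whole table. edgeR and limma, run on windows, bodies and tiles, called no member either. The CpGs with the largest difference per gene, none called, were 128125766 in the stretch shared by Itgam and Itgax (29.0 points, and 36.7 without both treated libraries numbered 2), 128154099 in Itgax (32.5, and 41.9 without them), 127314397 in Itgal (16.6, and 20.8), 128206024 in Itgad (22.6, and 28.2) and 77556813 in Itgb2 (21.4, and 27.8). Without them, all but the Itgal CpG were called.

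This result turned on CD11b-negative 2. Without that library, 4 of 5 windows, 3 of 5 bodies, 8 of 21 tiles and 36 of 129 CpGs were called, of which 1 CpG was lower, where 20.2% of all windows, 19% of bodies, 20.5% of tiles and 7.32% of CpGs were called in either direction. Without both treated libraries numbered 2, Itgam was at 71.4% ± 1.35 in CD11b-positive and 55.2% ± 2.91 in CD11b-negative cells (SD, n = 3 each), a difference of 16.2 points (adjusted p = 0.0103). In the same setting Itgax differed by 16.0 points (adjusted p = 0.0101), Itgb2 by 13.6 points (adjusted p = 0.0160) and Itgad by 12.4 points (adjusted p = 0.0183), all higher in CD11b-positive cells, and Itgal by 3.03 points (adjusted p = 0.429). Of all windows, 12.8% were called higher and 2.0% lower in that setting. At CpGs 34 were called higher and 1 lower of 129, where 6.42% of all CpGs were called higher and 1.98% lower. Also called higher were 3 of 5 bodies (11.9% of all higher, 2.29% lower) and 9 of 21 tiles (17.7% of all higher, 2.69% lower).

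The fit with the replicate number as a block, in which the numbers 1 to 4 are taken to pair the fractions, keeps all 8 libraries. It called 28 member CpGs higher and 1 lower, where 5.1% and 1.72% of all CpGs were. Of these, 11 of 20 lay in the Itgam window, 15 of 49 in Itgax, 7 of 22 in Itgb2, and 1 each in Itgal and Itgad, with shared CpGs counted in both windows. The CpG called lower was again position 77548739 of Itgb2, with -18.9 points (adjusted p = 0.00236). Under the block 6 of 21 tiles were called higher, where 11.6% of all tiles were called higher and 2.01% lower. No member window was called under the block (0.11% of all higher, 0.237% lower) and no member body (0.578% higher, 0.591% lower). The window differences under the block were 12.7 points at Itgam (adjusted p = 0.0648) and 12.5 at Itgax (adjusted p = 0.0577). They were 9.81 points at Itgb2 and 9.53 at Itgad (adjusted p = 0.0988 each), and 1.73 at Itgal (adjusted p = 0.521). With the Y share added to the model, the Itgam difference was -0.253 points and only 1 member CpG was called, lower.

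**Figure D5:**
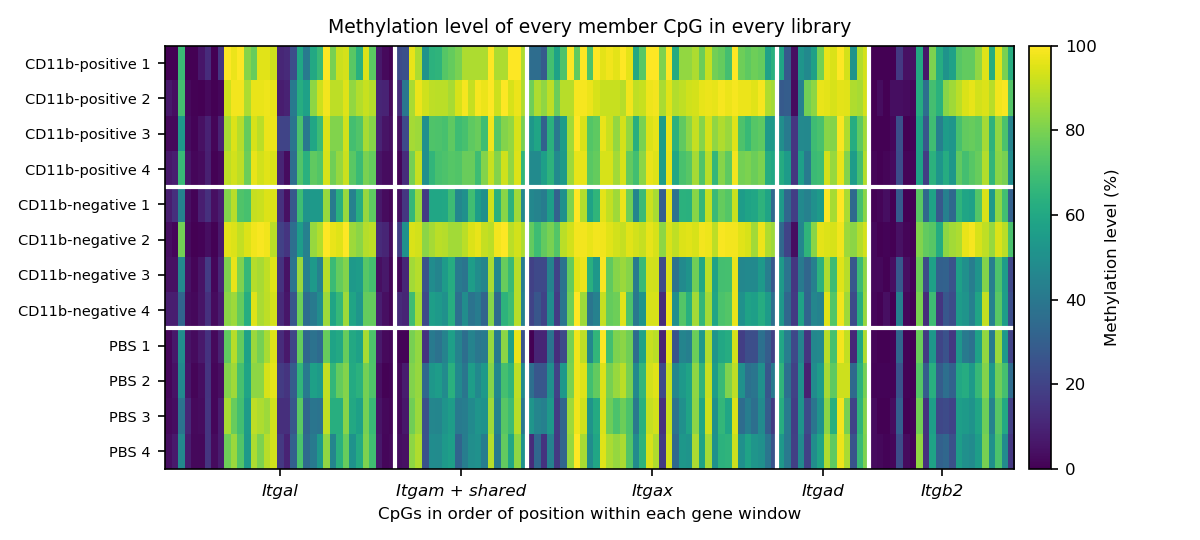
Methylation level (colour, 0 to 100%) of each of the 129 CpGs (columns, in order of position within a gene window) in each library (rows, CD11b-positive above CD11b-negative above PBS). The CpGs shared by Itgam and Itgax are drawn once, with Itgam. Both treated libraries numbered 2 have high levels over most columns, and the low columns at the left of Itgal and Itgb2 stay low in all 12 rows.

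In the order of levels, Itgax had the highest window methylation in each group (81.2% ± 7.82 in CD11b-positive, 68.9% ± 15.4 in CD11b-negative and 58.0% ± 4.03 in PBS cells, SD, n = 4 each). Itgam and Itgad came next and Itgb2 and Itgal lowest, and in PBS cells the levels of Itgb2 (38.1% ± 2.99) and Itgal (38.3% ± 0.796) did not differ beyond their spread. The PBS levels of Itgad (54.0% ± 3.23) and Itgam (50.9% ± 3.27) overlapped between libraries. Within each PBS library Itgad was the higher, at 50.3% against 46.6%, 58.1% against 54.6%, 53.3% against 51.1% and 54.2% against 51.3%. That difference was not tested. By a rule of smallest root mean square difference over the 12 libraries, among 16218 other windows with at least 10 CpGs, the windows most like Itgam were those of 6330409D20Rik (1.73 points), Myof (1.90) and Mettl7a3 (1.96). Most like Itgax were Slc3a1 (1.86), Bglap (2.10) and Spem1 (2.22), and most like Itgb2 were Wfdc1 (1.71), Lmod1 (2.06) and Lrp1 (2.06). For Itgal they were Gldn (2.18), Oaz1 (2.39) and Ccsap (2.45), and for Itgad Hmbox1 (1.22), Gbp5 (1.35) and Ech1 (1.87). The measure takes the level and its pattern together, and the libraries are shared by all windows.

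Other leukocyte integrins, integrin ligands, and activators and adaptors were set beside the β2 integrins, as a list of 45 that were all tested. Icam4 and Icam5 gave the same values, on 99 CpGs, and are counted separately. In CD11b-positive against PBS cells, 9 of 45 were called higher and 0 lower, where 19.1% of all windows were called higher, and their median difference was 5.52 points against 3.51 over all windows. The share called, 20%, was close to that of all windows. By role, calls were 4 of 11 ligands, 2 of 15 other integrins and 3 of 19 activators and adaptors. Some of the list lay lower in CD11b-positive cells by under 10 points, among them Itgb8 (-9.85 points), Lcp2 (-7.69), Icam4 (-4.77) and Icam1 (-3.37). The genes named next are the called ones with the largest gains. Icam2, an adhesion ligand of LFA-1, gained 29.3 points on 9 CpGs (50.4% ± 13.5 in CD11b-positive cells, 21.1% ± 5.86 in PBS cells, SD, n = 4 each, adjusted p = 0.00484). Skap1, an adaptor in integrin activation of T cells, gained 21.4 points (adjusted p = 0.00170). Fermt3, which encodes kindlin-3, needed to switch β2 integrins on, gained 16.0 points (adjusted p = 0.00284). Itgb2l, a β2-like integrin gene, gained 15.3 points on 5 CpGs (adjusted p = 0.00693). In the other 2 comparisons none of the 45 was called.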

How the data were processed

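DNA methylation was measured in 12 libraries, 4 per group by the labels. The deposited counts give, per CpG cytosine and strand, the reads that call it methylated and unmethylated, not normalised, one library per file, with rows only for cytosines with a call. The build was mm10, and methylKit 1.20.0, Bismark, cutadapt 2.7 and Trim Galore 0.6.4 are named, per the submitters' processing notes. No Bismark version, duplicate step or conversion rate was found in the sources used here. Reads carry no molecular identifiers, so intervals and limits cover counting error only.

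Strands were summed and the 1052856 CpGs on the autosomes and X with at least 10 calls in all 12 libraries kept (median 84 calls). Levels are methylated over all calls, and the 95% Wilson interval of a window in one library was at most 4.32 points wide. Windows and bodies of protein-coding genes and tiles of 1000 bp needed 3 CpGs. Each feature was tested by a quasi-binomial logistic model over the 8 libraries compared, by an F test with Pearson dispersion moderated as in limma's squeezeVar within bins of level and not under 1, and Benjamini-Hochberg adjustment over all features. Features were called at adjusted p under 0.05 where group means also lay 10 points apart. A difference is that of the group means, and its SE comes from the spread between libraries. The step was tested on simulated data in which every library had the same set spread. A library that stands apart, such as CD11b-negative 2, was not simulated. Python 3.11.15 (numpy 2.4.6, scipy 1.17.1, pandas 2.3.3) and R 4.3.3 (limma 3.58.1, edgeR 4.0.16) were used. Gene positions and promoters come from RefSeq tables that lack a strand for Itgal, Itgad and Itgb2; windows of 1000 bp around the start, which were planned, held no covered CpG in Itgam and Itgax and were not tested.

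The members and lists were chosen with earlier results of these data known. Named by rule were the 5 genes, per gene and comparison up to 5 called tiles and the called CpG with the largest gain and loss (or, with none called, the largest difference), 3 like windows per gene, and up to 4 called pathway genes. Other stretches were described by position, and those named beyond the rule were chosen after their values were seen.

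Numbers in the titles were taken to pair the treated fractions. Libraries with the same number deviated together from their group means over all windows (correlations 0.245, 0.907, 0.598 and 0.661). Only the libraries numbered 2 were each other's closest partner. Those numbered 3 and 4 deviated more closely with a library of another number, and number 1 was closest in 1 direction only. Whether the fractions numbered 1, 3 and 4 are paired is therefore not settled. Pairing was taken to need over 0.1 in all 4 numbers. Against PBS, numbers 1 to 4 gave 0.210, 0.727, 0.222 and -0.0945 for CD11b-positive and 0.473, 0.744, 0.552 and -0.189 for CD11b-negative, so 3 of 4 deviated together and number 4 did not. Alternatives were another coverage minimum (5 or 20 calls), CpGs common to the 8 libraries, no deepest CpGs, equal weight per CpG, centring on the library median, a 5 kb flank, no CpGs of other genes, edgeR, all 12 libraries, the replicate block, the Y share, and each library left out. Leaving out the libraries numbered 2 of both groups compared (PBS 2 included, in comparisons with PBS) was added after the data were seen.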

Additional observations from a re-analysis of the deposited data

Results flagged for a closer look

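Within a group of 4 libraries, the gap of the highest or lowest library to its neighbour was compared with the whole range, against Dixon's critical value at 95%. The levels examined were the 5 windows, the 5 bodies, all 21 tiles and 6 called CpGs. Of these 111 groups, 14 passed, where chance flags about 1 in 20 groups, and many of them share CpGs. The library was the highest of its group in 12 and the lowest in 2, and it was number 2 in each, 9 in CD11b-negative and 5 in CD11b-positive cells.

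In CD11b-positive cells, library 2 was at 86.7% in the Itgam window (next 72.8%), 92.9% in the Itgax window (next 78.3%), 89.0% in the Itgam body (next 72.6%), 85.9% in the Itgb2 tile at position 77557001 (next 63.4%) and 85.8% at the Itgb2 CpG 77557495 (next 57.1%).

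In CD11b-negative cells, library 2 was at 85.7% in the Itgam window (next 58.5%) and 49.8% in the Itgal body (next 42.0%). In tiles it was at 95.1% in the Itgal tile at position 127310001 (next 85.8%), 90.7% in the Itgal tile at 127344001 (next 72.0%), 94.6% in the Itgax tile at 128154001 (next 72.4%), 87.4% in the Itgad tile at 128206001 (next 56.5%) and 2.55% in the tile at 127345001 (next 1.35%). It was the lowest, at 2.56%, in the tile at the lower-coordinate end of Itgal (127296001, next 6.93%) and, at 19.1%, in the Itgad tile at 128181001 (next 34.5%). The cause was not tested.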

How the results depend on the processing

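For CD11b-positive against PBS, the Y share term gave 0 called windows, bodies, tiles and CpGs, and a fit of all 12 libraries 38 CpGs (7.22% of all), against 66 (16.7% of all by the count in either direction). Leaving out 1 library gave 4 windows (17.2% to 24.2% of all), 3 to 4 bodies (17.7% to 23.1%), 12 to 13 tiles (31.2% to 36.9%) and 55 to 67 CpGs (11.3% to 16.4%). The replicate block, where numbers 1 to 3 but not 4 deviated together, gave 68 CpGs (18.4%) and changed no count of member windows, bodies or tiles. For CD11b-negative against PBS every alternative gave 0 member calls.

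For CD11b-positive against CD11b-negative, where 0 were called, leaving out 1 library gave 0 to 4 windows, 0 to 3 bodies, 0 to 8 tiles and 0 to 36 CpGs, the highest without CD11b-negative 2, and 0 member calls without any other. Without both treated libraries numbered 2 there were 4 windows, 3 bodies, 9 tiles and 35 CpGs. The replicate block gave 6 tiles and 29 CpGs, the block without both of those libraries gave 4 windows (11.6% of all), 3 bodies (11.2%), 9 tiles (21.4%) and 38 CpGs (9.7%), and the Y share term 1 CpG (0.0183%).

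With the Y share term signs turned, and of the values concerned only the Itgax tile was called without it. Against PBS they were -3.22 points for the CD11b-positive Itgal window, -1.58 for the Itgax tile at 128151001, -2.05 for the CD11b-negative Itgal window and -0.461 for the CD11b-negative Itgad body. Between the fractions they were -0.253 and -2.40 for the Itgam window and body, -2.06 for the Itgax window, -2.83 and -1.10 for the Itgal window and body, and -0.381 and -2.19 for the Itgb2 window and body. Leaving out 1 library also turned signs, with ranges of -2.23 to 3.81 points for the Itgal window and -0.664 to 3.02 for the Itgad body of CD11b-negative against PBS (both lowest without CD11b-negative 2), and -0.954 to 5.08 for the Itgal window between the fractions. Without CD11b-negative 2 and PBS 2 the first was -1.96. The cause was not tested.

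Among values of single genes, tiles and CpGs, 840 kept their direction and side of the threshold, 39 were no longer called and 24 became called. The Itgad window was also not called after centring on library medians. Equal weighting and edgeR were not run for CpGs, and Itgad had too few CpGs left without those in other genes. Depth limits the starts of Itgam and Itgax and the lower-coordinate end of Itgad, with 0 to 32 calls per library within 1000 bp.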

Other observations

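The 4 Itgad body CpGs at 7845 to 8081 bp from the lower-coordinate end, which also lie in Gm39091, were lowest in the treated libraries numbered 2. Levels were 44.1%, 31.7%, 40.6% and 49.2% in CD11b-positive cells, 41.0%, 29.6%, 38.2% and 43.2% in CD11b-negative cells, and 43.0%, 44.7%, 45.0% and 41.0% in PBS cells (replicates 1 to 4). Elsewhere in the members, those libraries were mostly the highest.

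Within 1000 bp of the lower-coordinate end of Itgad, 25 of 34 calls were methylated in CD11b-positive cells, 12 of 23 in CD11b-negative cells and 1 of 6 in PBS cells, too few for a comparison.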
